A study of Mus musculus with 6 samples.

Results

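The subunits of Polycomb repressive complex 2 (PRC2) were measured in erythroid progenitors of Bcl11a knockout and of control mice. The 7 genes are Ezh1, Ezh2, Eed, Suz12, Jarid2, Phf19 and Mtf2, out of 18193 genes named on the array. Every probe set annotated to 1 of them alone was taken, 24 of the 45037 probe sets. No probe set with several gene symbols named a member. The knockout mice were Bcl11a fl/fl and carried EpoR-Cre, a Cre recombinase placed under the erythropoietin receptor gene, a design meant to remove Bcl11a in the red cell lineage. The control mice were Bcl11a +/+, and no Cre allele is named for them. All 6 mice were females of 6 weeks, and each gave 1 Affymetrix array of bone marrow cells sorted as CD71+Ter119+, with 3 mice in each group. An effect of the Cre allele, or of a strain background that the labels do not give, cannot be told apart from that of Bcl11a.

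PRC2 places methyl groups on lysine 27 of histone H3, a mark of repressed genes. Either Ezh2 or its paralog Ezh1 supplies the catalytic subunit, while Eed and Suz12 are needed for the complex to form and act. Jarid2, Mtf2 and Phf19 are accessory subunits that help to bring the complex to chromatin or tune its activity. Ezh2 is typical of dividing cells and Ezh1 persists in cells that divide less, and in human erythroid cells the complex shifts from EZH2 towards EZH1 as the cells mature, a switch tied to the exchange of GATA2 for GATA1. In bulk RNA of sorted cells, a change in the share of cell types and a change within cells cannot be told apart.

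The promoters of Ezh1 and Ezh2 are shown because the balance of these catalytic subunits is the comparison made between members. Both are from RefSeq, assembly GRCm38.p6, 5′ to 3′ in the direction of transcription, from 250 bases before the annotated start site to 50 after it. The Ezh1 window is chr11:101226414-101226713 on the minus strand and the Ezh2 window chr6:47594981-47595280 on the minus strand. Capitals mark matches on either strand to the GATA words AGATAA and TGATAA, to 4 E2F words and to CCAAT, and none of the matches shown overlap. The E2F words were TTGGCGC as well as TTCCCGC, and further TTCGCGC as well as TTGCCGC.
Ezh1: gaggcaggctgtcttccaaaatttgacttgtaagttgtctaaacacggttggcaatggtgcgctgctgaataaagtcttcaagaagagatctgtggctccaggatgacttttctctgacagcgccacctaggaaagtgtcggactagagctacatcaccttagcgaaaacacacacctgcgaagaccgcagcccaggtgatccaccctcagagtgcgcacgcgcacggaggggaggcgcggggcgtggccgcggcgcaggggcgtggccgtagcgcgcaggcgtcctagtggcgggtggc
Ezh2: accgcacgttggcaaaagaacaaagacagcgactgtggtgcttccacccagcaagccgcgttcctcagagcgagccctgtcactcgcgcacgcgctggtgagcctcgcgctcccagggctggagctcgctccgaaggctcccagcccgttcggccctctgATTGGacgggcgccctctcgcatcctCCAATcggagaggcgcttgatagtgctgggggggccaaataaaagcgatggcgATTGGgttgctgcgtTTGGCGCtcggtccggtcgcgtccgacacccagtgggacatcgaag
The Ezh2 window held 1 E2F word, which began at base 5 of the transcribed part, and 3 CCAAT words. The Ezh1 window held none of the words searched, so it has no capitals. Among the 32851 promoter windows of the same length, 9.57% held an E2F word, 37.4% held CCAAT and 18.6% held a GATA word. All 7 members had at least 1 window, 9 in all. An E2F word stood in those of 3 members (Ezh2, Suz12 and Phf19), CCAAT in those of 5 and a GATA word in those of 0. The shares are per window, whereas a member was counted if any of its windows held a word, so they are not like measures. A match is a run of letters and does not show binding.

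Values are intensities on the linear scale of the deposited table. The array medians lay between 67.5 and 70.9, and levels read by 2 different probe sets are not on 1 scale. Groups were compared with limma on log2(intensity + 16), a scale that understates the change of dim probe sets, adjusting by Benjamini-Hochberg across the 45037 probe sets, at a threshold of 0.05. Of all probe sets, 63 rose (0.14%) and 3 fell (0.00666%), 0.147% together. The 3 knockout and the 3 control values did not overlap in 19.5% of all probe sets, with the knockout higher in 10.6% and lower in 8.91%. An exact two-sided permutation test of 3 against 3 mice cannot give a p below 0.1. The label of the cells was checked against marker genes. Of the erythroid markers 7 of 8 were measured, with single values between 830 and 26006, and the lowest value of any of the 10 neutrophil markers was 4028. All values of the measured erythroid and neutrophil markers thus lay far above 1, the value that 775 to 874 probe sets per array had. S100a8, an abundant calcium-binding protein of neutrophils, had intensities of 38113 to 39377 in the knockout mice, against 39661 to 40360 in the control mice, the highest value on each of the 6 arrays, so RNA of neutrophil genes was abundant in cells sorted as erythroid.

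The targeted gene did not check the labels. Bcl11a had 7 probe sets, none of which passed, and their place relative to the deleted part is not known here. Groups did not overlap in 6 of them, with the knockout lower in 4 (log2 changes of -0.40 to -0.17) and higher in 2 (0.23 and 0.32). The brightest, 1456632_at, had 1286, 1419 and 1190.1 in the knockout mice, against 1475, 1553 and 1449.7 in the control mice. Probe set 1419406_a_at had 1069, 1115 and 1047 in the knockout mice, against 918, 971 and 853 in the control mice. The probe sets thus went both ways, and the seventh, the dimmest, overlapped. The knockout and control groups are named here by their labels alone.

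None of the 24 PRC2 probe sets passed the test, against 0.147% of all probe sets. An unadjusted p under 0.05 was reached by 2 of them, both of Ezh1, and by 12.4% of all probe sets. The median log2 change (knockout minus control) of the 24 was 0.070, against -0.0064 over all probe sets. Groups did not overlap in 4 of the 24 (16.7%), against 19.5% of the whole table. All 4 were higher in the knockout, against 10.6% of all probe sets with the knockout higher. These were 2 of Ezh1, 1 of Eed and 1 of Suz12. In all, 16 of the 24 changes lay above 0 and 8 below. That count was 14 above 0 after quantile normalization, when groups without overlap numbered 3 with the knockout higher and 3 with it lower. Probe sets of 1 gene are not independent, and the 16 include all 6 of Suz12 and all 4 of Ezh1. By the brightest probe set of each of the 7 genes, 4 changes lay above 0 and 3 below, with a median of 0.021. Groups did not overlap in 2 of the 7 genes (28.6%), both higher in the knockout. Over all genes this was 21.6%, with the knockout higher in 12.4%.

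**Figure D1:**
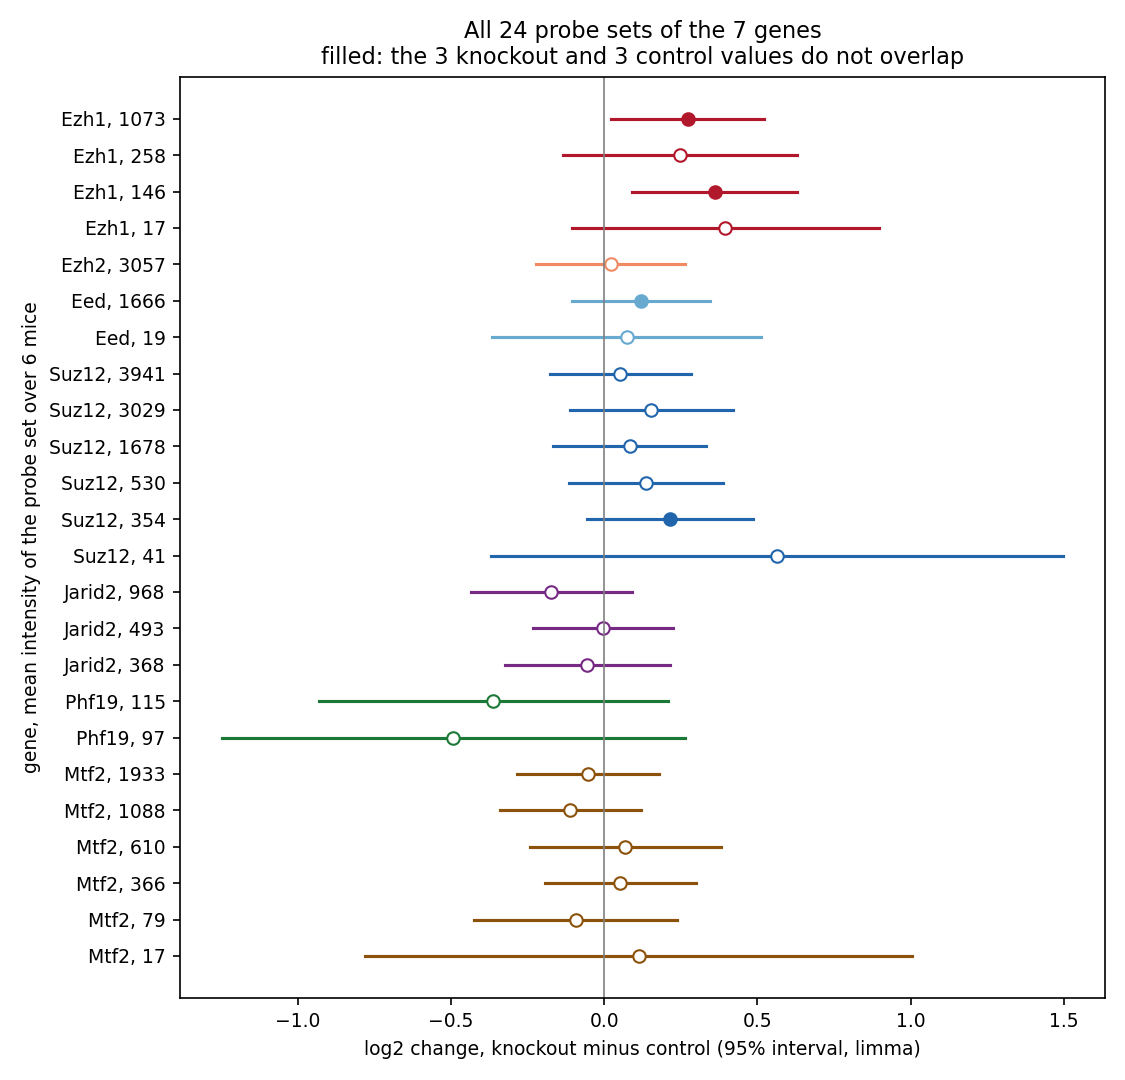
Log2 change of each of the 24 probe sets (horizontal axis, knockout minus control, with the 95% interval of the limma fit), listed by gene with the mean intensity over 6 mice. The 4 Ezh1 probe sets lie between 0.25 and 0.40 and the single Ezh2 probe set at 0.021, and filled points mark the 4 probe sets whose groups did not overlap.

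Ezh1, the catalytic subunit of less actively dividing cells, stood higher in the knockout in all 4 of its probe sets, none of which passed the test. Its brightest probe set, 1449023_a_at, had intensities of 1128, 1240.0 and 1155 in knockout mice 1 to 3, against 1049, 932 and 930.2 in control mice 1 to 3. The groups did not overlap, and the smallest gap was between knockout mouse 1 and control mouse 1. The means were 1175 ± 58.2 in the knockout and 970.4 ± 68.2 in the control (SD, n = 3 each), so that the knockout mean was 21.0% higher. The log2 change was 0.27 ± 0.10 (SE, limma, adjusted p = 0.367), with a 95% interval from 0.02 to 0.52.

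The other Ezh1 probe sets are dimmer. Probe set 1429629_at had 171, 181 and 146 in the knockout mice, against 127, 129 and 120.1 in the control mice. Its groups did not overlap, the log2 change was 0.36 ± 0.11 (SE, limma, adjusted p = 0.300), and the knockout mean was 32.4% higher. Probe set 1418290_a_at had 286, 334 and 228 in the knockout mice, against 212, 236 and 253 in the control mice, and here knockout mouse 3 lay within the range of the control mice. Its log2 change of 0.25 ± 0.16 had an adjusted p of 0.573 (limma). Probe set 1429630_at, near the floor of the table, had 29.8, 23.99 and 11.2 in the knockout mice, against 14.8, 11.6 and 9.74 in the control mice. The groups overlapped, and the log2 change was 0.40 ± 0.21 (SE, limma, adjusted p = 0.496). All 4 changes lay above 0 under each scaling tried, but probe sets of 1 gene read the same RNA and are not independent.

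Ezh2, the catalytic subunit of proliferating cells, was read by 1 probe set, 1416544_at. It had 2965, 3347 and 2933 in the knockout mice, against 2993, 3002 and 3103 in the control mice. Knockout mouse 2 was the highest of the 6, while the other 2 knockout mice were the lowest, so the groups overlapped at both ends. The means were 3082 ± 231 in the knockout and 3033 ± 60.7 in the control (SD, n = 3 each). The log2 change was 0.021 ± 0.10 (SE, limma, adjusted p = 0.956), with a 95% interval from -0.22 to 0.26, and it was -0.077 after quantile normalization and -0.040 without knockout mouse 2.

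**Figure D2:**
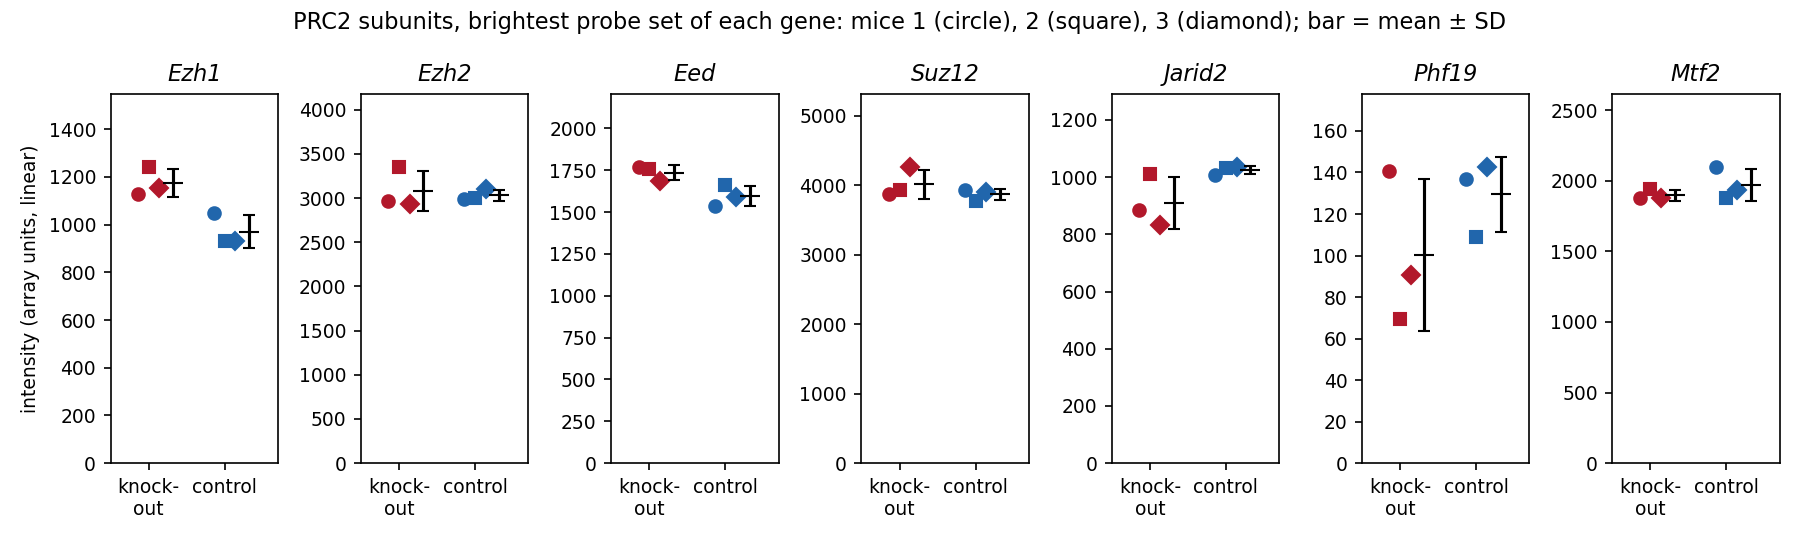
Intensity (linear array units) of the brightest probe set of each of the 7 genes, with 1 marker per mouse and the mean ± SD beside it, knockout left of control. Ezh1 and Eed have 3 knockout values above 3 control values, and the values of the other 5 genes overlap.

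The balance of the 2 catalytic subunits was taken in each mouse as the log2 value of Ezh1 minus that of Ezh2, both from the brightest probe set. Its size depends on the probes, and its difference between groups was compared. The balance was -1.38, -1.42 and -1.33 in knockout mice 1 to 3, against -1.50, -1.67 and -1.72 in control mice 1 to 3. All 3 knockout mice stood higher, that is, further towards Ezh1, and control mouse 1 stood nearest to them. The means were -1.38 ± 0.045 in the knockout and -1.63 ± 0.12 in the control (SD, n = 3 each). The difference was 0.25 on the log2 scale, or 1.19-fold, and an exact permutation test (two-sided) gave p = 0.1, the smallest possible here. Over the 13 alternatives tried, the difference stayed between 0.21 and 0.32. Median centring, the filter to the brightest 50% and the block for mouse number cannot change its size, and each gave 0.252.

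With the 3 dimmer Ezh1 probe sets in place of the brightest, the balance differed by 0.23, 0.34 and 0.38 on the log2 scale, each time higher in the knockout. The groups did not overlap with 1429629_at and overlapped with the other 2. All 4 pairs use the same Ezh2 probe set, so a shift in it would move them together. The brightest Ezh1 probe set was set against the 6 other members in the same way, and its difference lay above 0 against each. It was 0.45 against Jarid2, 0.32 against Mtf2 and 0.22 against Suz12, with groups that did not overlap. Against Phf19 and Eed it was 0.63 and 0.15, and the groups overlapped. The exact permutation p was 0.1 for the 4 members without overlap, Ezh2 among them, and 0.2 for Phf19 and Eed, which gave 0.15 and 0.2 after Benjamini-Hochberg adjustment over the 6 comparisons. All of these differences use the same Ezh1 probe set, and the brightest probe set of no other member had a change as high as its 0.27, so they had to lie above 0 and do not support each other.

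**Figure D3:**
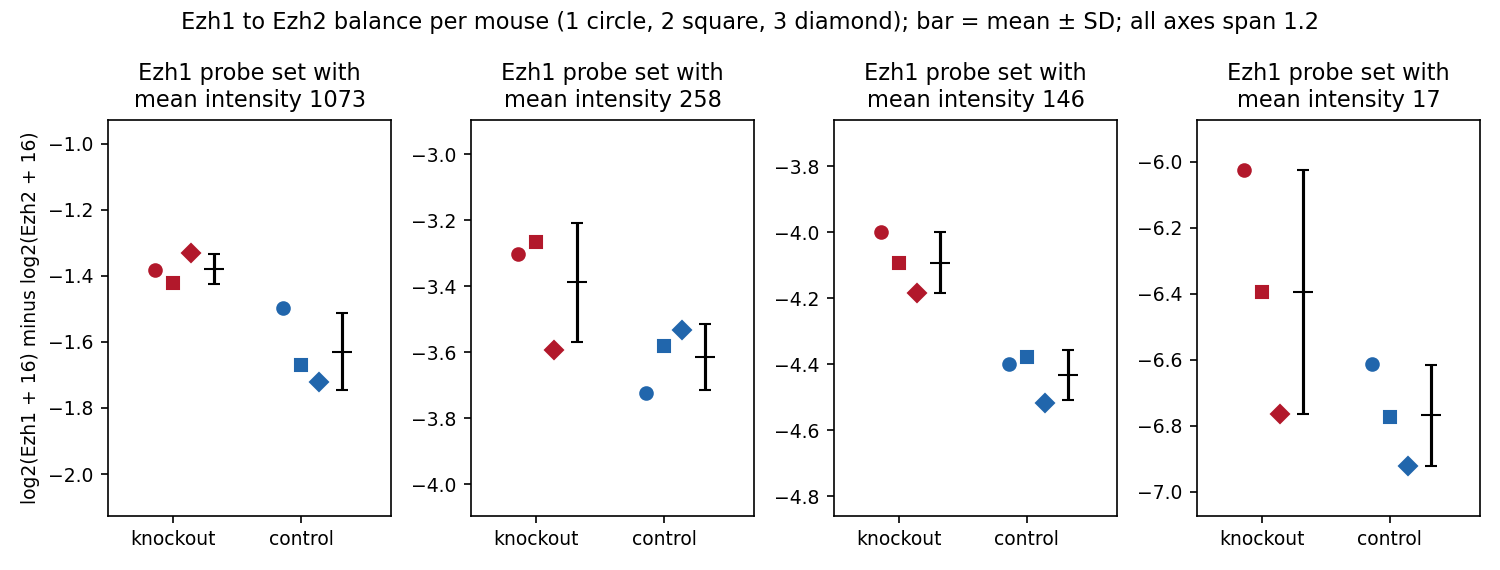
Ezh1 to Ezh2 balance in each mouse (vertical axis, difference of log2 values), 1 panel for each Ezh1 probe set, with 1 marker per mouse and the mean ± SD beside it, knockout left of control. In the panels of the probe sets with mean intensities of 1073 and 146 every knockout mouse lies above every control mouse, and in the other panels knockout mouse 3 lies among the control mice.

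Gata1 and Gata2 are the factors tied to the EZH2 to EZH1 shift in human cells. Their values differed between the groups without passing the test, and a link to the balance was not tested. Gata1 is also among the erythroid markers below, and Gata2 among those of early progenitors. Gata1, a master regulator of red cell genes, had 1657, 1813 and 1932 in the knockout mice, against 1299, 872 and 1171 in the control mice. Its log2 change was 0.70 ± 0.17 (SE, limma, adjusted p = 0.216), and this passed with an intensity trend and robust moderation (adjusted p = 0.00857, against 0.0504 to 0.432 over the other alternatives). The brighter Gata2 probe set had 1280.4, 1297 and 1052 in the knockout mice, against 1623, 1412 and 1441 in the control mice, a log2 change of -0.30 ± 0.13 (SE, limma, adjusted p = 0.405). Both probe sets of Gata2 had every knockout value below every control value, as did 8.91% of all probe sets. The dimmer one had a log2 change of -0.40.

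Of the core partners, Eed binds the methylated histone tail and stimulates the enzyme. Its probe set 1448653_at had 1767, 1757 and 1683 in the knockout mice, against 1538, 1662 and 1588 in the control mice. The groups did not overlap, by a margin of 1683 in the lowest knockout mouse to 1662 in the highest control mouse. The knockout mean was 8.73% higher, and the log2 change was 0.12 ± 0.093 (SE, limma, adjusted p = 0.651), with a 95% interval from -0.10 to 0.34. After quantile normalization the change was 0.034. The second Eed probe set was dim, with means of 20.1 in the knockout and 18.0 in the control, and its groups overlapped.

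Suz12, the zinc finger subunit that holds the complex together, was read by 6 probe sets. The brightest, 1420021_s_at, had 3868, 3922 and 4254 in the knockout mice, against 3926, 3772 and 3902 in the control mice. Knockout mouse 3 was the highest of the 6, and the other 2 knockout mice lay within the control range. The log2 change was 0.053 ± 0.095 (SE, limma, adjusted p = 0.871), and -0.064 after quantile normalization. All 6 Suz12 changes lay above 0, between 0.053 and 0.56 (5 of the 6 after quantile normalization). The largest came from the dimmest probe set, in which control mouse 2 had 7.46, against 40.02 and 49.9 in the other 2 control mice and 39.2 to 55.5 in the knockout mice. Groups did not overlap in 1420022_s_at alone, which had 397, 369 and 377 in the knockout mice, against 292, 360 and 331 in the control mice, a log2 change of 0.21 ± 0.11 (SE, limma, adjusted p = 0.497).

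In every probe set of the accessory subunits Jarid2, Mtf2 and Phf19 the groups overlapped. Jarid2, which helps to recruit the complex and activates it, had 885, 1012 and 834 in the knockout mice, against 1009, 1032 and 1034 in the control mice, in its brightest probe set. Knockout mouse 2 overlapped the control range, and the other 2 knockout mice lay below it. The log2 change was -0.17 ± 0.11 (SE, limma, adjusted p = 0.569), and -0.11 without knockout mouse 3. The other 2 Jarid2 probe sets had changes of -0.0039 and -0.055, nearer to 0 than the brightest.

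Mtf2 and Phf19 are Polycomb-like proteins, paralogs with a Tudor domain that reads histone H3. Mtf2 had 1875, 1940 and 1875 in the knockout mice, against 2094, 1876 and 1936 in the control mice, in its brightest probe set 1418516_at. The groups overlapped, and the log2 change was -0.052 ± 0.096 (SE, limma, adjusted p = 0.875). Its 6 probe sets were split, 3 above 0 and 3 below, between -0.11 and 0.11.

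Among the brightest probe sets of the 7 genes, that of Phf19 had the widest error. The dimmest probe sets of Suz12 and Mtf2 had wider ones still (SE of 0.39 and 0.37). The brighter Phf19 probe set had 141, 69.4 and 90.5 in the knockout mice, against 137, 109 and 142 in the control mice, and the dimmer one 89.2, 43.8 and 105 in the knockout mice, against 142, 79.0 and 125 in the control mice. Knockout mouse 2 was the lowest of the 6 in both, and the groups overlapped in both. The log2 changes were -0.36 ± 0.24 and -0.49 ± 0.31 (SE, limma, adjusted p = 0.579 and 0.571). The brighter one was -0.16 without knockout mouse 2 and -0.60 without knockout mouse 1. The intervals of these dim probe sets, from -0.93 to 0.21 and from -1.25 to 0.26, were wider than those of every Ezh1 probe set.

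Of the 7 other PRC2 subunits and partners, all measured, none passed the test, with a median log2 change of 0.18, against -0.0010 over all 18193 genes. Their groups did not overlap in 2 of 7, both higher in the knockout; over all genes this was 21.6%, with the knockout higher in 12.4% and lower in 9.22%. Phf1, the third Polycomb-like protein, had means of 469.9 ± 13.8 in the knockout and 389 ± 34.5 in the control (SD, n = 3 each), a log2 change of 0.27 ± 0.11 (SE, limma, adjusted p = 0.388). Lcor and Lcorl, which encode PRC2 partners among their products, had log2 changes of 0.24 and 0.23, and that of Lcor was 0.15 without control mouse 2. Rbbp4, a histone chaperone shared with other complexes, had one of 0.18, and of 0.082 after quantile normalization.

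Polycomb repressive complex 1 (PRC1) ubiquitylates histone H2A and acts with PRC2. Of its 22 genes analysed none passed, with 6 log2 changes above 0, 16 below and a median of -0.061. Groups did not overlap in 3 of 22 (13.6%), 1 higher and 2 lower in the knockout, a share below the 21.6% of all genes. Cbx2, a reader of the H3K27 methyl mark, had 190, 177 and 112 in the knockout mice, against 202, 254 and 215 in the control mice. Each knockout value lay below each control value, with a log2 change of -0.47 ± 0.20 (SE, limma, adjusted p = 0.418), and one of -0.26 without knockout mouse 3. Bcorl1, a corepressor, had a log2 change of 0.47 with groups that overlapped, and of 0.31 without control mouse 3 or without knockout mouse 3. Pcgf3, a RING finger subunit, had one of 0.27, and Yaf2, a subunit of the variant complexes, one of 0.20 (0.13 after quantile normalization).

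The enzymes that oppose Polycomb marks did not pass either, in 0 of 6 genes, with a median log2 change of 0.029 and groups that did not overlap in 2 of 6, both higher in the knockout, against 12.4% of all genes with the knockout higher. Kdm6a, an X-linked demethylase of H3K27, had 2089, 2374 and 2378 in the knockout mice, against 1950, 1709 and 1941 in the control mice. All 3 knockout values were higher, with a log2 change of 0.29 ± 0.11 (SE, limma, adjusted p = 0.377). Kdm6b, the related demethylase, had a log2 change of -0.17, and of -0.092 without control mouse 1. Asxl2 and Asxl3, cofactors of the H2A deubiquitinase Bap1, had changes of 0.13 and -0.13, and the Asxl3 probe set was dim.

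Genes of cell division were set beside the PRC2 values, since Ezh2 is typical of dividing cells. All 11 measured mitotic genes had a log2 change above 0, with a median of 0.33, although none passed the test. The groups did not overlap in 7 of 11, all higher in the knockout, against 12.4% of all genes with the knockout higher. Tpx2, a spindle assembly factor, had a change of 0.56, the mitotic kinases Aurka and Plk1 had changes of 0.47 and 0.40, and Birc5 one of 0.38. With an intensity trend and robust moderation, under which 3.21% of all probe sets passed, 6 of the 11 mitotic genes rose and none of the 24 PRC2 probe sets passed. Ezh2 in this fit had an adjusted p of 0.942 (0.787 to 0.980 over all alternatives) and the brightest Ezh1 probe set one of 0.117 (0.117 to 0.580).

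**Figure D4:**
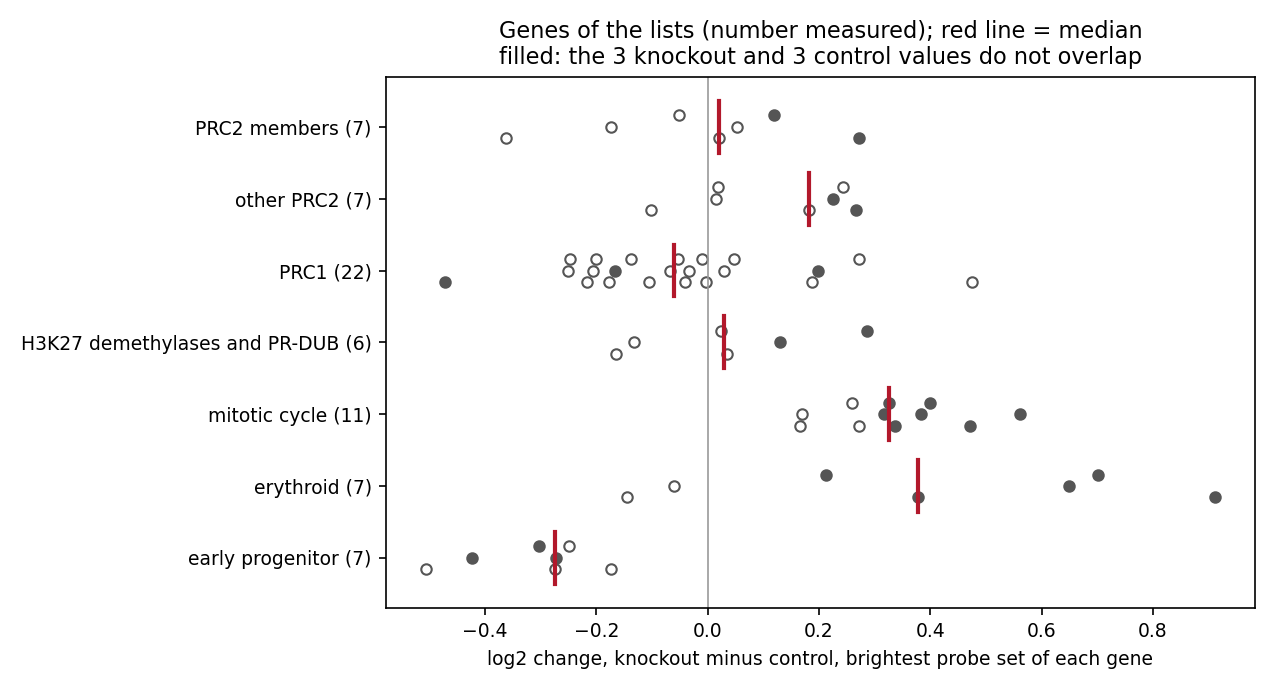
Log2 change (horizontal axis, knockout minus control) of the brightest probe set of each measured gene in 7 lists, with the median as a red line and filled points where the groups did not overlap. The mitotic genes all lie above 0 and the early progenitor genes all below 0, while the 7 PRC2 genes lie on both sides of 0.

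Marker genes of cell types differed between the groups as well, although none of those measured passed the test. The summed intensity of 7 erythroid markers was 80057 to 86949 in the knockout mice, against 64105 to 76341 in the control mice. Of their log2 changes 5 lay above 0 and 2 below, those of Epor (-0.14) and Alas2 (-0.060). Markers of early progenitors summed to 5213 to 6878 in the knockout mice, against 8045 to 8206 in the control mice, with all 7 changes below 0 and a median of -0.27. Myb made up most of that sum, with means of 4208 in the knockout and 5595 in the control. Groups did not overlap in 3 of the 7 genes (42.9%), all lower in the knockout, against 9.22% of all genes with the knockout lower. The 10 neutrophil markers summed to 193209 to 201048 in the knockout mice, against 209496 to 210603 in the control mice, with 9 of 10 changes below 0. The 4 measured basophil markers summed to 3727 to 5287 in the knockout mice, against 5802 to 6174 in the control mice. Mcpt8 made up most of that sum, with means of 2898 in the knockout and 3844 in the control. All 4 basophil changes lay below 0, and groups did not overlap in 2 of the 4 (50%), against the same 9.22%. The 7 measured B cell markers summed to 11490 to 14818 in the knockout mice, against 14498 to 16817 in the control mice. Of their changes 6 lay below 0 and 1 above. The groups did not overlap in 2 of the 7 (28.6%), both lower in the knockout, against 9.22% of all genes with the knockout lower. The 2 were Igll1 and Vpreb1, genes of B cell precursors. These had log2 changes of -1.31 and -1.19, and neither passed the test. Macrophage markers, 7 in all, summed to 9489 to 10106 in the knockout mice, against 8305 to 9517 in the control mice. The B cell and macrophage sums overlapped between the groups, as did those of the 3 measured T cell and 4 measured megakaryocyte markers. The part of these shifts in the PRC2 values was not tested.

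The genes most like Ezh1 and Ezh2 over the 6 mice were taken as those with the smallest root mean square difference of centred log2 values among 10828 genes of the brightest 50% of probe sets. For Ezh1 they were Crlf3, Tacc1 and Clk4, with differences of 0.0252, 0.0258 and 0.0259, against a median of 0.206 over all candidates. For Ezh2 they were Cbx1, Ubqln1 and Rpl4, with differences of 0.0128, 0.0182 and 0.0182, against a median of 0.153. With 6 arrays such likeness is a description of these mice.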

How the data were processed

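Affymetrix arrays of sorted bone marrow erythroid progenitors from 3 knockout and 3 control mice were used. The table that the authors deposited gives each probe set and array a linear intensity. Summarisation software, background correction and scaling are not stated in the labels or the file. The medians and interquartile ranges of log2 values differed by at most 0.0567 and 0.0699 between arrays, under the 0.1 set for a new normalization, so the deposited values were kept. Between 775 and 874 values per array were exactly 1, and there were no detection calls. The number of arrays limits the precision. The labels name separate mice.

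The platform annotation gave 1 symbol for 34945 of 45037 probe sets, several for 932 and none for 9160, and 34741 matched a RefSeq gene by Entrez ID, for names only. A gene stood for its brightest probe set. The test was limma's moderated one (version 3.58.1, run under R 4.3.3), two-sided and without an intensity trend. The fit was tested on simulated data. The genes named are all members, Bcl11a, Gata1, Gata2, up to 4 genes by p of each Polycomb or mitotic list, and the 3 genes most like Ezh1 and Ezh2. The members and lists were chosen with earlier results of these data known. The alternatives covered normalization (quantile, median centring), the pseudocount (1 or 64), a filter to the brightest 50%, robust moderation with an intensity trend, a block for mouse number, omission of each mouse in turn, and averaging a gene's probe sets.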

Additional observations from a re-analysis of the deposited data

How the results depend on the processing

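None of the 24 PRC2 probe sets passed under any alternative run, and with the mean of all probe sets none of the 7 genes did. Ezh1 kept a log2 change between 0.21 and 0.33 (adjusted p 0.117 to 0.580). After quantile normalization the log2 change turned to -0.077 for Ezh2, -0.064 for Suz12, -0.12 for Cbx1, -0.056 for Ubqln1 and -0.037 for Rpl4, and the cause was not tested. The Ezh1 to Ezh2 balance lay between 0.21 and 0.32 over the mice left out, and with the mean of all probe sets it was 0.30. The mouse number as a replicate block gave a balance of 0.25 (exact sign permutation p = 0.25, the smallest that 3 pairs allow) and 14 rises and 0 falls over all probe sets. The labels share a number but name no pairing, deviations of same-numbered mice correlated at -0.035, -0.014 and -0.040, and 0 of 6 mice correlated best with their own number. Over all probe sets, 708 rose and 145 fell in the brightest 50%, 1206 and 239 with an intensity trend and robust moderation, 38 and 0 with a pseudocount of 1, 508 and 50 with a pseudocount of 64, and 27 to 41 and 0 to 1 on leaving out a mouse. Of the mitotic genes 2 rose in the brightest 50%, 6 with the trend and 1 with a pseudocount of 64. On leaving out a mouse, log2 changes near 0 spanned both signs, from -0.040 to 0.055 for Ezh2 (below 0 without knockout mouse 2), -0.35 to 0.022 for Asxl3, -0.17 to 0.039 for the dimmest Bcl11a probe set, -0.047 to 0.042 for Cbx1, -0.037 to 0.055 for Ubqln1 and -0.031 to 0.047 for Rpl4. Dim probe sets had wide intervals, and signal over background was not known.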
